A study of Homo sapiens with 12 samples.

Results

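The genes described here are the aminoacyl-tRNA synthetases, the enzymes that join each amino acid to its transfer RNA (tRNA). They were chosen by name, as a gene family, by a rule that uses no measured value but was drawn up with earlier results of these data known: 36 genes, of which 20 encode cytosolic and 16 mitochondrial enzymes. A name ending in 1 in newer nomenclature counted as the same gene, so AARS is the gene now called AARS1. Of the 36, 35 were found among the 35741 genes of the count table, and VARS2 is not analysed here. After the filter on low counts 33 remained, namely 18 cytosolic and 15 mitochondrial genes, among 15715 genes tested in all. The 2 cytosolic genes that did not pass were CARS, the cysteinyl enzyme, with 0 to 49 counts a library, and VARS, the valyl enzyme, with 0 to 63 counts. All but 1 CARS library held 9 counts or fewer, the exception being PNA-10b replicate 2 with 49. All but 1 VARS library held 5 counts or fewer, the exception being control replicate 2 with 63. Why these 2 genes were listed so low was not tested.

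The cells were U87, an established human glioblastoma line, and the assay was sequencing of polyadenylated RNA. PNA-10b+21 cells received 2 anti-seed peptide nucleic acids, sgPNA-10b and sgPNA-21, at 150 nM each. PNA-21 cells received sgPNA-21 alone and PNA-10b cells sgPNA-10b alone, each at 150 nM, and control cells were left untreated. Peptide nucleic acids carry DNA bases on an uncharged backbone built like a peptide, and the anti-seed kind is made to pair with the seed of a microRNA, here that of miR-21 or miR-10b. Both agents were delivered in bioadhesive nanoparticles for 72 h to wells plated with 50000 cells. Each of the 4 groups has 3 libraries. The labels describe no cells given empty nanoparticles or a control peptide nucleic acid, so the agent cannot be told apart from its carrier in any comparison with control. They do not say whether replicates were separate cultures, so p-values measure only the spread between these libraries, which may be technical.

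Each synthetase recognises 1 amino acid and the tRNAs that carry it, with EPRS, which charges both glutamate and proline, as the exception. In the human cytosol several of them sit together in the multisynthetase complex, held by the scaffold proteins AIMP1, AIMP2 and EEF1E1, while others act as free enzymes. Mitochondria translate their own messages and use a separate set, encoded in the nucleus and mostly named with a final 2, although GARS and KARS each supply both compartments. The enzymes fall into class I and class II by the fold of their catalytic domain. When amino acids run short or proteins misfold, cells translate more of the transcription factor ATF4, which is known to raise many cytosolic synthetase genes together with genes of amino acid synthesis and import. ATF4 binds the C/EBP-ATF response element, commonly written TGATGNAA.

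Promoter windows from 250 bases before to 50 bases after the RefSeq start (build GRCh38.p14) were matched for 16 cytosolic and 14 mitochondrial genes. DARS, LARS, VARS, YARS, AARS2 and VARS2 were not matched. The letters TGATGNAA, searched on both strands, occurred in 6 of the 16 cytosolic windows (37.5%) and 1 of the 14 mitochondrial windows (7.14%), against 1270 of 35116 windows in the whole table (3.62%). All 6 cytosolic matches read TGATGCAA. They are shown because 4 of these genes, AARS, IARS, MARS and NARS, rose in at least 1 comparison with control, while TARS did not pass and CARS was not tested. Each 30-base stretch is written in the direction of the motif, with the match in capitals.
AARS, chr16:70289675-70289704, plus strand: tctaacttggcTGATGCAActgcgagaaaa
IARS, chr9:92293692-92293721, plus strand: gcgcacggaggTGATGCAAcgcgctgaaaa
MARS, chr12:57488053-57488082, minus strand: gaatccctcgcTGATGCAAccggaaccggc
NARS, chr18:57621804-57621833, minus strand: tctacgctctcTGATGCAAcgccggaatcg
TARS, chr5:33440956-33440985, minus strand: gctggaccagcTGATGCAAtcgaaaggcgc
CARS, chr11:3057407-3057436, plus strand: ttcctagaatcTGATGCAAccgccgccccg
The single mitochondrial match, in YARS2, differs at the free position and is shown for comparison.
YARS2, chr12:32756076-32756105, minus strand: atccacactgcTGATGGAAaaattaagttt

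Counted along the gene, the match began 4 bases before the start in MARS, 13 before in IARS, 2 before in CARS, and at base 3 in TARS and base 15 in NARS. In AARS it lay farther upstream, beginning 187 bases before the start, and in YARS2 197 before. In NARS and YARS2 the motif was on the strand of the gene, and in the other 5 on the opposite strand. The whole windows of NARS, the asparaginyl gene that rose under all 3 treatments, and of MARS, the methionyl gene that departed from additivity, are given below from 5′ to 3′ along the gene, with the match in capitals.
NARS, chr18:57621787-57622086, minus strand: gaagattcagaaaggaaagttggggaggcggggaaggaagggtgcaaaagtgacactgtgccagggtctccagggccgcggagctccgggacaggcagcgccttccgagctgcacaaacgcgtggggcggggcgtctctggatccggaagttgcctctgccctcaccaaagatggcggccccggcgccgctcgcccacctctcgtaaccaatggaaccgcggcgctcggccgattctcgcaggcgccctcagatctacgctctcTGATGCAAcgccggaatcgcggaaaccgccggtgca
MARS, chr12:57487818-57488117, plus strand: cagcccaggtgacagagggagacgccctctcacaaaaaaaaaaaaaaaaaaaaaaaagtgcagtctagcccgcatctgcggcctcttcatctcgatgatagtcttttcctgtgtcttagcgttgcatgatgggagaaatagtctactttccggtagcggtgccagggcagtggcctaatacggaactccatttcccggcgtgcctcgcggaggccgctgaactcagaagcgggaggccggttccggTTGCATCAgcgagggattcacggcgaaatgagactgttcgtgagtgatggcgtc
In MARS the capitals are the reverse complement of the motif. A match of these letters is a description of the window and was not tested as a binding site.

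The seed that sgPNA-21 was made against, bases 2 to 8 of the mature microRNA, is in capitals in the RefSeq sequence of miR-21-5p (chr17:59841273-59841294, plus strand).
miR-21-5p: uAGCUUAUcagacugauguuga
Sites were searched for miR-21 only, since the sequence of miR-10b was not in the reference used here. A transcript can be a direct target of miR-21 if its 3′ untranslated region holds ATAAGCT, the complement of that seed. Of the 33 tested synthetases with an annotated region, 1 held it (3.03%), against 1269 of 12237 tested genes (10.4%). The synthetases' regions were shorter, with a median of 660 bases against 1394. The single gene was MARS2, the mitochondrial methionyl enzyme, whose site is printed with 11 bases on each side and the seed match in capitals.
MARS2, chr2:197707288-197707316, plus strand, GENCODE 29: caaatgagcacATAAGCTgtgtccctgtg
Levels are given in CPM, the usual per-library scaling of counts, here with a correction for library composition (TMM). MARS2 had 8.94, 7.22 and 8.35 CPM in PNA-10b+21, 7.38, 7.65 and 7.55 CPM in PNA-21, 7.75, 8.49 and 5.62 CPM in PNA-10b, and 6.10, 6.89 and 5.97 CPM in control. All 3 PNA-10b+21 and all 3 PNA-21 libraries lay above all control libraries, as was so for 20.3% and 21.5% of all genes. PNA-10b replicates 1 and 2 also lay above all control libraries, and its replicate 3 lay below them. The log2 fold change was 0.37 ± 0.14 (SE), adjusted p = 0.0518 in PNA-10b+21 against control and 0.24 ± 0.14 (SE), adjusted p = 0.198 in PNA-21 against control, so neither passed.

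Total counts ranged from 12846676 to 18305820 a library. Of the U87 markers VIM, CD44, TNC, CAV1 and CHI3L1 were each at 731 CPM or more in every library, while NES ranged from 10.6 to 16.2 CPM, CD99 was at or near 0, and CDKN2A, commonly described as deleted in this line, did not exceed 0.109 CPM. The leukocyte marker PTPRC did not exceed 1.98 CPM and the epithelial marker CDH1 0.0713 CPM, and GFAP of astrocytes ranged from 1.5 to 4.76 CPM. The neuronal gene SNAP25 ranged from 60.9 to 86.3 CPM. In bulk RNA, fewer cells expressing a gene and less of its RNA per cell cannot be told apart.

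Cytosolic synthetase transcripts were mostly more abundant than mitochondrial ones in control cells, although the sets overlapped. To compare genes, CPM was divided by the length of all annotated exons in kilobases (RPKM). In control cells the cytosolic genes ranged from 15 RPKM for HARS, the histidyl enzyme, to 82.4 ± 1.4 RPKM for GARS, the glycyl enzyme (SD, n = 3), with a median of 39.5. The mitochondrial genes ranged from 0.30 RPKM for SARS2, the seryl enzyme, to 41.4 ± 1.5 RPKM for IARS2, the isoleucyl enzyme, with a median of 7.84. IARS2 thus lay above the cytosolic median. SARS2 had only 11 to 20 counts a library, and 57% of its exon bases are shared with other genes, mainly AC011455.2 on its own strand, so its value is uncertain. Near the top of the cytosolic order SARS, IARS and AARS had 65.9 ± 0.7, 58.4 ± 2.2 and 58.1 ± 1.7 RPKM in control cells, and IARS and AARS did not differ beyond their spread.

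Genes were paired by name where both the cytosolic gene and its namesake ending in 2 were tested, which gave 11 amino acids. Phenylalanine, glutamate and proline also had tested genes in both compartments, but their cytosolic genes are named otherwise and were not paired. For cysteine only the mitochondrial gene, CARS2, was tested. In control cells the cytosolic gene had the higher RPKM in each of these 11 pairs. The ratio was 1.11 for histidine, where HARS and its neighbour HARS2 lie head to head and share exon bases, 1.41 for isoleucine and 2.15 for arginine. It was 3.19 for leucine, 3.34 for tyrosine, 5.17 for tryptophan, 6.0 for threonine and 8.75 for alanine. Methionine and asparagine had ratios of 11.2 and 12.9, and serine, with the uncertain SARS2, 220. Between replicate libraries the coefficient of variation of a gene was 4.38% for the cytosolic and 5.40% for the mitochondrial genes (medians over genes of their median over groups).

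**Figure D1:**
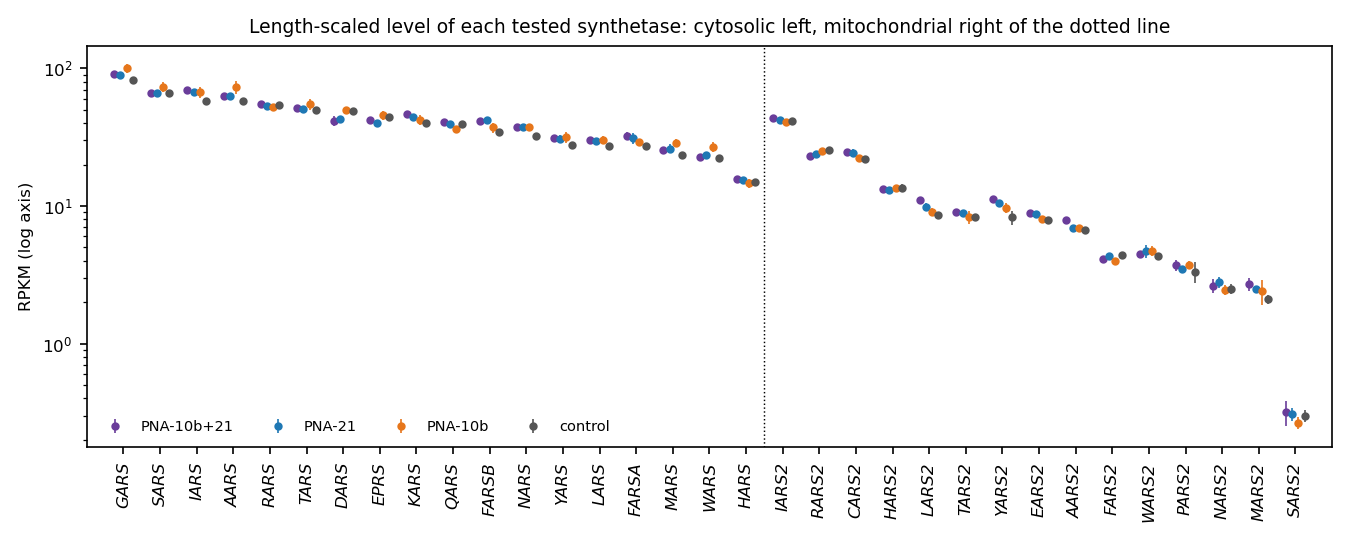
Length-scaled level of each tested synthetase in RPKM on a log axis, as mean and SD of 3 libraries, for PNA-10b+21, PNA-21, PNA-10b and control from left to right within each gene. The cytosolic genes, left of the dotted line, lie between about the level of HARS and that of GARS, while the mitochondrial genes spread over a wider range down to SARS2.

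Set against untreated cells, PNA-10b cells show what sgPNA-10b with its carrier changed. Of the 18 tested cytosolic synthetases 6 rose and none fell, while none of the 15 mitochondrial ones passed in either direction. The 6 were AARS, MARS, GARS, WARS, NARS and IARS, the alanyl, methionyl, glycyl, tryptophanyl, asparaginyl and isoleucyl enzymes, with log2 increases between 0.20 and 0.32. A gene passed at an adjusted p under 0.05 in edgeR's quasi-likelihood test with Benjamini-Hochberg adjustment over all tested genes. By this rule 6.48% of all genes passed in PNA-10b against control, 2.75% higher and 3.74% lower. The median log2 fold change was 0.14 over the cytosolic genes and 0.01 over the mitochondrial ones, against -0.00149 over all genes. In the same test 1 cytosolic gene was lower at an unadjusted p under 0.05. Of the mitochondrial genes 2 had an unadjusted p under 0.05, 1 higher and 1 lower, and DESeq2 called none. With library totals in place of TMM scaling, the split of all calls was 534 higher and 452 lower in place of 432 and 587. Gene positions below are those of GENCODE 29 on hg38, and each level sums reads over the gene's exons.

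GARS (ENSG00000106105, chr7:30594681-30634033, plus strand), which serves both cytosol and mitochondria, had 374, 382 and 374 CPM in PNA-10b+21, 376, 378 and 359 CPM in PNA-21, 429, 439 and 379 CPM in PNA-10b, and 336, 346 and 345 CPM in control. All 3 PNA-10b libraries lay above all control libraries, as did 11.0% of all genes (log2 fold change 0.28 ± 0.053 (SE), adjusted p = 0.00257). AARS (ENSG00000090861, chr16:70252295-70289543, minus strand), the alanyl enzyme, had 299.7, 274 and 281 CPM in PNA-10b+21, 294, 292 and 267 CPM in PNA-21, 333, 359.8 and 289 CPM in PNA-10b, and 254, 269 and 261 CPM in control. Its PNA-10b libraries were again all above control (0.32 ± 0.065 (SE), adjusted p = 0.0041), and replicate 3, at 289 CPM, lay among the PNA-10b+21 and PNA-21 libraries. WARS (ENSG00000140105, chr14:100333788-100376805, minus strand), the tryptophanyl enzyme and an interferon-inducible gene, had 146, 145 and 142 CPM in PNA-10b+21, 151, 152 and 143 CPM in PNA-21, 172, 183 and 156 CPM in PNA-10b, and 143, 143 and 138 CPM in control. Its PNA-10b libraries were above each of the other 9 libraries (0.27 ± 0.054 (SE), adjusted p = 0.00438 against control). The share of all genes separated from 9 libraries in this way was not counted.

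MARS (ENSG00000166986, chr12:57475445-57517569, plus strand), the methionyl enzyme of the multisynthetase complex, had 181, 173 and 181 CPM in PNA-10b+21, 192, 192 and 167 CPM in PNA-21, 203, 213 and 187 CPM in PNA-10b, and 167, 166 and 163 CPM in control. The PNA-10b libraries lay above control, as was so for 11.0% of all genes, with a change of 0.28 ± 0.058 (SE), adjusted p = 0.00489. The lowest PNA-21 library lay within the control range. Of the exon bases of MARS, 13.3% are shared with other genes, chiefly ARHGAP9 and DDIT3 on the opposite strand, and whether the counting used strand is not given in the sources used here. The same holds for WARS, with 10.6% shared chiefly with WDR25, and for DARS, with 7.6% shared with DARS-AS1, both on the opposite strand. DDIT3, named for this overlap after its values were seen, had 37.5, 37.9 and 34.3 CPM in PNA-10b+21, 34.5, 41.4 and 39.2 CPM in PNA-21, 45.0, 53.2 and 47.4 CPM in PNA-10b, and 33.9, 37.7 and 35.6 CPM in control, a change of 0.44 ± 0.076 (SE), adjusted p = 0.00127 in PNA-10b against control. Its part in the MARS count was not tested.

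NARS (ENSG00000134440, chr18:57600656-57622213, minus strand), the asparaginyl enzyme, had 151, 161 and 147 CPM in PNA-10b+21, 149, 155 and 155 CPM in PNA-21, 156, 156 and 145 CPM in PNA-10b, and 132, 129.5 and 135 CPM in control. All 9 treated libraries lay above all 3 control libraries, and the change was 0.21 ± 0.050 (SE), adjusted p = 0.014 in PNA-10b against control. How many of all genes had every treated library above control was not counted. IARS (ENSG00000196305, chr9:92210207-92293756, minus strand), the isoleucyl enzyme of the multisynthetase complex, had 508, 526 and 515 CPM in PNA-10b+21, 521, 506 and 475 CPM in PNA-21, 518, 527 and 448 CPM in PNA-10b, and 416, 432 and 448 CPM in control. In PNA-10b 2 libraries were above every control library and replicate 3, at 447.7 CPM, was just under the highest control library, so the groups overlapped (0.20 ± 0.058 (SE), adjusted p = 0.0374).

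GARS passed whichever 1 library was left out, and the other 5 calls did not. PNA-10b replicate 3 was the lowest of its group in 18 of 18 cytosolic genes and in 6 of 15 mitochondrial ones. Without that library 10 cytosolic synthetases rose in place of 6. Over all genes 413 passed without control replicate 3, 467 without control replicate 1 and 305 without PNA-10b replicate 2, in place of 1019. Without PNA-10b replicate 2 GARS was the only cytosolic synthetase to pass, and AARS, WARS and MARS missed the threshold at adjusted p of 0.0561, 0.0583 and 0.0578. NARS was lost without PNA-10b replicate 2 or control replicate 1 (up to 0.101). IARS was lost when 1 of 6 libraries was left out, namely each control library, PNA-10b replicates 1 and 2 and PNA-10b+21 replicate 2 (up to 0.244). Of the genes that did not pass, YARS, the tyrosyl enzyme, came closest (0.20 ± 0.060 (SE), adjusted p = 0.0512), followed by SARS, the seryl enzyme (0.16 ± 0.057 (SE), adjusted p = 0.0938). Of the cytosolic genes QARS, the glutaminyl enzyme, had the lowest value (-0.11 ± 0.048 (SE), adjusted p = 0.173).

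**Figure D2:**
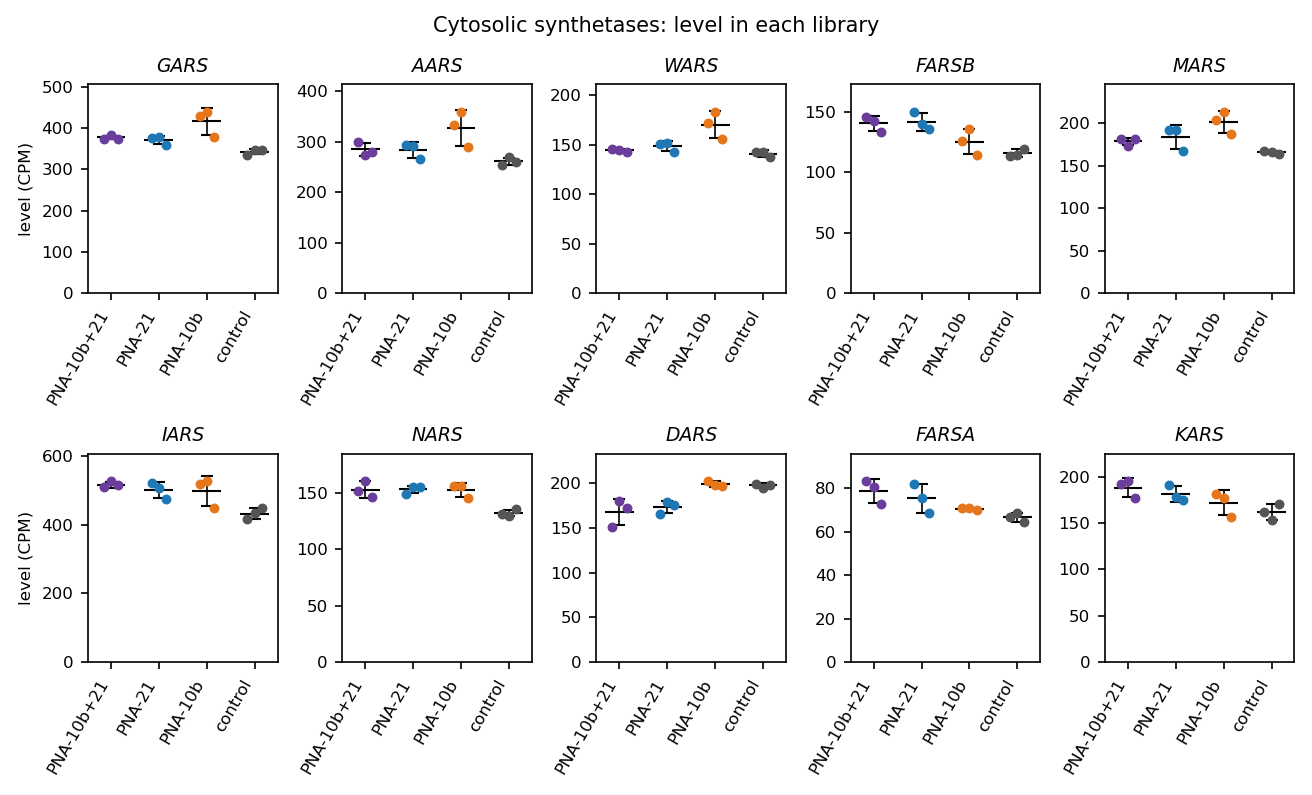
Level in CPM of the 10 cytosolic synthetases with the smallest p-values against control, in PNA-10b+21, PNA-21, PNA-10b and control from left to right. Points are libraries in replicate order, lines are means and bars are SD (n = 3), and the lowest PNA-10b point is replicate 3 in every panel.

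In PNA-21 cells the genes of both subunits of the phenylalanyl enzyme rose, together with other cytosolic and some mitochondrial synthetases. Of the 18 cytosolic genes 5 rose (FARSB, NARS, IARS, FARSA and KARS) and 1 fell (DARS), and of the 15 mitochondrial genes 3 rose (YARS2, LARS2 and CARS2) and none fell. Over all genes 29.8% passed in PNA-21 against control, 15.2% higher and 14.6% lower. The 6 of 18 cytosolic genes called are near the 29.8%, and the 3 of 15 mitochondrial ones are not above it. The median log2 fold change was 0.11 over the cytosolic and 0.09 over the mitochondrial genes, against -0.00621 over all genes. With library totals 10 cytosolic genes rose and none fell, and the split of all genes was 3222 higher and 1733 lower in place of 2388 and 2296, the median over all genes being shifted by 0.05.

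In PNA-10b+21 cells 7 cytosolic genes rose (FARSB, IARS, FARSA, KARS, NARS, YARS and LARS) and 1 fell (DARS). Of the mitochondrial genes 5 rose (YARS2, LARS2, AARS2, EARS2 and CARS2) and none fell. Over all genes 27.0% passed in PNA-10b+21 against control, 13.6% higher and 13.4% lower. The median log2 fold change was 0.12 over the cytosolic and 0.11 over the mitochondrial genes, against -0.00326 over all genes. With library totals 10 cytosolic genes rose and 1 fell, and the split of all genes was 2901 higher and 1667 lower in place of 2131 and 2112. The 3 comparisons share the control libraries.

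FARSB (ENSG00000116120, chr2:222570536-222656337, minus strand), the beta subunit of the cytosolic phenylalanyl enzyme, had 146, 142 and 134 CPM in PNA-10b+21, 150.3, 140.1 and 136 CPM in PNA-21, 126, 136 and 115 CPM in PNA-10b, and 114, 114 and 119.6 CPM in control. The PNA-10b+21 and PNA-21 libraries were all above control, while PNA-10b overlapped it. Libraries above all control libraries were found for 20.3% of genes in PNA-10b+21 and 21.5% in PNA-21. The changes were 0.28 ± 0.060 (SE), adjusted p = 0.0014 in PNA-10b+21 and 0.30 ± 0.060 (SE), adjusted p = 0.000878 in PNA-21, against 0.12 ± 0.060 (SE), adjusted p = 0.283 in PNA-10b. FARSA (ENSG00000179115, chr19:12922479-12934037, minus strand), the alpha subunit of the same enzyme, had 83.5, 80.7 and 72.8 CPM in PNA-10b+21, 82.2, 75.7 and 68.9 CPM in PNA-21, 71.0, 71.0 and 70.2 CPM in PNA-10b, and 66.9, 68.5 and 64.7 CPM in control. Every treated library lay above control, although the lowest PNA-21 library did so by less than 1 CPM, with changes of 0.24 ± 0.064 (SE), adjusted p = 0.00683 in PNA-10b+21 and 0.18 ± 0.064 (SE), adjusted p = 0.0393 in PNA-21. Again, the share of all genes with every treated library above control was not counted.

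KARS (ENSG00000065427, chr16:75627474-75648643, minus strand), the lysyl enzyme of the multisynthetase complex, whose gene also supplies the mitochondria, had 192, 196 and 177 CPM in PNA-10b+21, 191, 178 and 174 CPM in PNA-21, 182, 177 and 157 CPM in PNA-10b, and 162, 153 and 171 CPM in control. PNA-10b+21 and PNA-21 libraries lay above all control libraries, as was so for 20.3% and 21.5% of all genes. The KARS changes were 0.22 ± 0.060 (SE), adjusted p = 0.0107 in PNA-10b+21 and 0.16 ± 0.060 (SE), adjusted p = 0.049 in PNA-21. For IARS, whose libraries are given above, they were 0.26 ± 0.058 (SE), adjusted p = 0.00223 in PNA-10b+21 and 0.21 ± 0.058 (SE), adjusted p = 0.00844 in PNA-21. For NARS they were 0.21 ± 0.050 (SE), adjusted p = 0.00333 in PNA-10b+21 and 0.21 ± 0.050 (SE), adjusted p = 0.00284 in PNA-21, close to the value in PNA-10b. The genes IARS and NARS were called in each of the 3 comparisons with control. YARS rose in PNA-10b+21 (0.18 ± 0.060 (SE), adjusted p = 0.0294), and so did LARS, the leucyl enzyme of the complex (0.15 ± 0.051 (SE), adjusted p = 0.0365).

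DARS (ENSG00000115866, chr2:135906677-135986100, minus strand), the aspartyl enzyme of the multisynthetase complex, was the only synthetase of the 33 called lower than control. It had 151, 179.7 and 172 CPM in PNA-10b+21, 166, 179 and 175 CPM in PNA-21, 203, 198 and 197 CPM in PNA-10b, and 199, 195 and 198 CPM in control. All PNA-10b+21 and PNA-21 libraries lay below all control libraries, as was so for 19.9% and 20.9% of genes, and the PNA-10b libraries overlapped control. The changes were -0.24 ± 0.055 (SE), adjusted p = 0.00301 in PNA-10b+21, -0.19 ± 0.055 (SE), adjusted p = 0.0136 in PNA-21 and 0.01 ± 0.055 (SE), adjusted p = 0.938 in PNA-10b. In PNA-21 the call was lost without PNA-21 replicate 1 (adjusted p = 0.0727) and with library totals.

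Among the mitochondrial synthetases LARS2 (ENSG00000011376, chr3:45388506-45549421, plus strand), the leucyl enzyme, had 76.6, 77.6 and 71.3 CPM in PNA-10b+21, 72.5, 64.9 and 64.6 CPM in PNA-21, 65.6, 63.0 and 57.2 CPM in PNA-10b, and 59.3, 56.2 and 60.6 CPM in control. The PNA-10b+21 and PNA-21 libraries were all above control, as was so for 20.3% and 21.5% of all genes, and the PNA-10b libraries overlapped control. The changes were 0.36 ± 0.063 (SE), adjusted p = 0.000228 in PNA-10b+21, 0.20 ± 0.063 (SE), adjusted p = 0.02 in PNA-21 and 0.08 ± 0.064 (SE), adjusted p = 0.544 in PNA-10b. YARS2 (ENSG00000139131, chr12:32727490-32755902, minus strand), the tyrosyl enzyme, had 23.4, 25.4 and 24.3 CPM in PNA-10b+21, 23.3, 22.1 and 22.3 CPM in PNA-21, 19.4, 22.5 and 20.8 CPM in PNA-10b, and 20.04, 17.6 and 15.9 CPM in control. PNA-10b+21 and PNA-21 libraries lay above all control libraries, which themselves spread by more than those of either treatment. YARS2 had the largest increase of the 33 genes, 0.44 ± 0.084 (SE), adjusted p = 0.000513 in PNA-10b+21, against 0.33 ± 0.084 (SE), adjusted p = 0.00508 in PNA-21 and 0.22 ± 0.086 (SE), adjusted p = 0.132 in PNA-10b.

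AARS2 (ENSG00000124608, chr6:44299654-44313326, minus strand), the mitochondrial alanyl enzyme, had 35.8, 34.3 and 31.6 CPM in PNA-10b+21, 30.8, 29.1 and 29.1 CPM in PNA-21, 29.1, 29.5 and 30.4 CPM in PNA-10b, and 28.2, 28.3 and 29.1 CPM in control. The PNA-10b+21 libraries were above each of the other 9 libraries, and the change passed in that group (0.25 ± 0.064 (SE), adjusted p = 0.00596, against 0.06 ± 0.065 (SE), adjusted p = 0.551 in PNA-21). The share of all genes set apart from 9 libraries was not counted here either. CARS2 (ENSG00000134905, chr13:110641412-110713603, minus strand), the cysteinyl enzyme, had 253, 264 and 262 CPM in PNA-10b+21, 269.5, 255 and 238 CPM in PNA-21, 235, 228 and 234 CPM in PNA-10b, and 234, 226 and 231 CPM in control. Its PNA-10b+21 and PNA-21 libraries lay above control (0.17 ± 0.049 (SE), adjusted p = 0.0124 in PNA-10b+21 and 0.14 ± 0.049 (SE), adjusted p = 0.0333 in PNA-21). Of all genes 20.3% lay above control in this way in PNA-10b+21 and 21.5% in PNA-21. EARS2 (ENSG00000103356, chr16:23522014-23557731, minus strand), which charges glutamate, had 53.5, 48.7 and 51.5 CPM in PNA-10b+21, 53.4, 47.9 and 48.5 CPM in PNA-21, 49.0, 44.0 and 44.4 CPM in PNA-10b, and 43.8, 44.2 and 46.9 CPM in control. Libraries of PNA-10b+21 and PNA-21 lay above control, and the change passed in PNA-10b+21 (0.19 ± 0.063 (SE), adjusted p = 0.0272) and not in PNA-21 (0.15 ± 0.063 (SE), adjusted p = 0.0716).

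**Figure D3:**
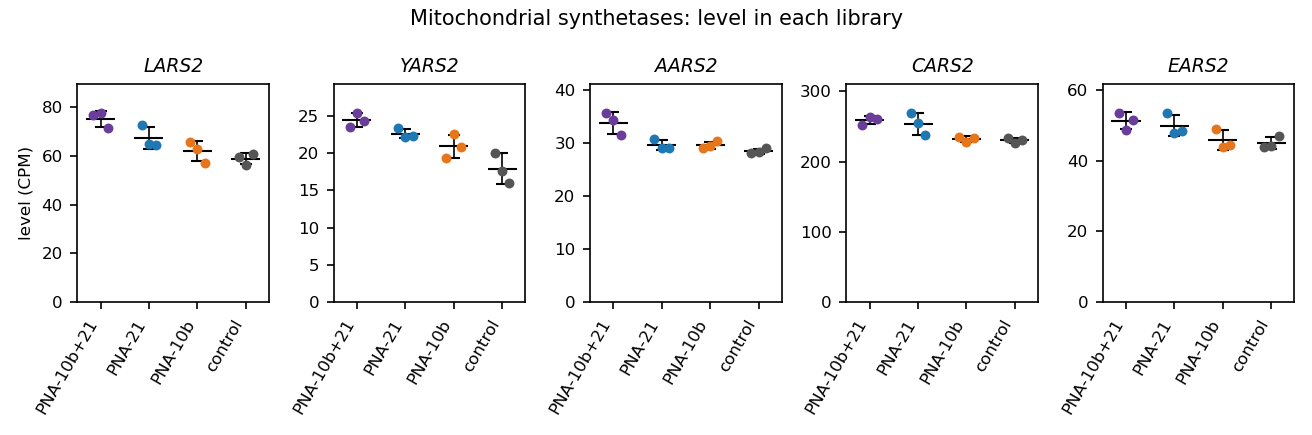
Level in CPM of the 5 mitochondrial synthetases called against control, in PNA-10b+21, PNA-21, PNA-10b and control from left to right. Points are libraries in replicate order, lines are means and bars are SD (n = 3). The PNA-10b+21 points lie above all control points in each panel, as was so for 20.3% of all genes.

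Leaving out single libraries changed several of these calls. In PNA-10b+21 against control, FARSB, IARS, NARS, DARS, LARS2, YARS2 and AARS2 passed whichever 1 of the 12 libraries was left out. KARS was lost without control replicate 2 or PNA-10b+21 replicate 1 or 2 (adjusted p up to 0.0607) and FARSA without PNA-10b+21 replicate 1 (0.0565). LARS was lost without control replicate 1 or PNA-10b+21 replicate 1 or 2 (up to 0.176) and YARS without control or PNA-10b+21 replicates 1 or 2 (up to 0.0903). CARS2 was lost without PNA-10b+21 replicate 2 (0.0508), and EARS2 without control replicate 1 or 2 or PNA-10b+21 replicate 1 or 3 (up to 0.142). With PNA-10b+21 replicate 1 left out 4 cytosolic genes passed, and with its replicate 2 left out 5.

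In PNA-21 against control, FARSB, NARS, IARS and YARS2 passed whichever library was left out. The cytosolic count was 3 without PNA-21 replicate 1, and the mitochondrial count was 1 without PNA-21 replicate 1 or control replicate 2. LARS2 was lost without either of those libraries (adjusted p up to 0.127). FARSA and CARS2 were each lost when a control library or PNA-21 replicate 1 or 2 was left out (up to 0.234 and 0.184). KARS, at the edge of the threshold, was lost when 1 of 7 libraries was left out, namely control, PNA-10b+21 and PNA-21 replicates 1 or 2 and PNA-10b replicate 2 (up to 0.20).

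The remaining genes passed in no comparison with control. Among the cytosolic ones these were EPRS, HARS, QARS, RARS, SARS and TARS, with log2 fold changes between -0.13 (EPRS, PNA-21) and 0.16 (SARS, PNA-10b). RARS charges arginine and TARS threonine. Among the mitochondrial ones they were FARS2, HARS2, IARS2, MARS2, NARS2, PARS2, RARS2, SARS2, TARS2 and WARS2, with values between -0.18 (SARS2, PNA-10b) and 0.37 (MARS2, PNA-10b+21). These include low genes with wide errors, such as NARS2 and PARS2 near 8 CPM, and well-measured genes such as IARS2, at 162 to 183 CPM, where no log2 fold change exceeded 0.07 ± 0.050 (SE).

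**Figure D4:**
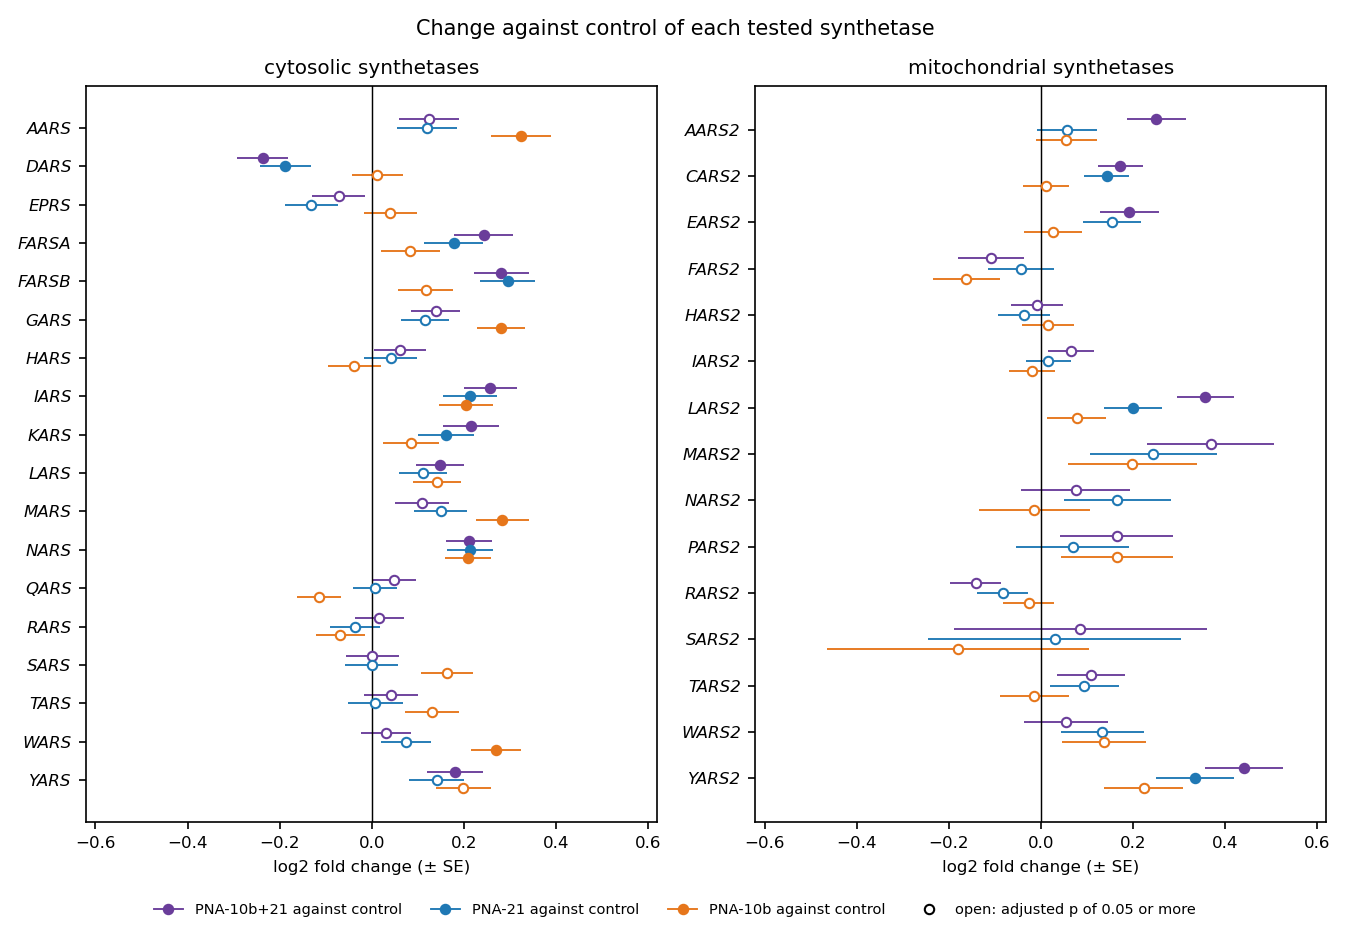
Log2 fold change against control with its standard error for each of the 18 cytosolic (left) and 15 mitochondrial (right) synthetases, with PNA-10b+21 above PNA-21 above PNA-10b in each row; filled symbols passed at an adjusted p under 0.05. DARS is the only gene with filled symbols left of 0, and no mitochondrial gene has a filled PNA-10b symbol.

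The treated groups were also compared with each other. PNA-10b+21 cells received 150 nM of each agent, so the total dose also differs between them and either single group. In PNA-10b+21 against PNA-10b, DARS (-0.25 ± 0.055 (SE), adjusted p = 0.00648) and WARS (-0.24 ± 0.054 (SE), adjusted p = 0.00726) were lower in PNA-10b+21. QARS (0.16 ± 0.048 (SE), adjusted p = 0.0334), LARS2 (0.28 ± 0.062 (SE), adjusted p = 0.00641) and CARS2 (0.16 ± 0.049 (SE), adjusted p = 0.0422) were higher in PNA-10b+21. These are 1 cytosolic gene higher and 2 lower, and 2 mitochondrial genes higher, where 9.70% of all genes passed, 4.61% higher and 5.10% lower. With library totals 2 cytosolic genes were higher and 2 lower. QARS had 194, 186 and 192 CPM in PNA-10b+21 and 177, 169.5 and 165 CPM in PNA-10b, which did not overlap, as was so for 14.9% of genes in this direction. Its libraries had 191, 184 and 181 CPM in PNA-21 and 189.8, 177 and 187 CPM in control.

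In the same comparison LARS2 passed whichever library was left out. DARS was lost without PNA-10b+21 replicate 1 (adjusted p = 0.0634) and WARS without PNA-10b replicate 2 (0.0610). QARS was lost without PNA-10b replicate 2 or 3 or a PNA-10b+21 library (up to 0.161). CARS2 was lost when 1 of 8 libraries was left out, namely every PNA-10b and PNA-10b+21 library, control replicate 1 and PNA-21 replicate 2 (up to 0.139). The cytosolic count was 6, all lower, without PNA-10b replicate 3, 5 without PNA-21 replicate 3 and 1 without PNA-10b+21 replicate 1.

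In PNA-21 against PNA-10b, DARS (-0.20 ± 0.055 (SE), adjusted p = 0.0327) and WARS (-0.20 ± 0.054 (SE), adjusted p = 0.0314) were lower in PNA-21, where 6.79% of all genes passed, 2.91% higher and 3.88% lower. No mitochondrial gene passed; 1 had an unadjusted p under 0.05, and DESeq2 called none. With library totals 2 further cytosolic genes were higher in PNA-21 and 1 mitochondrial gene passed. DARS was lost without a PNA-10b library or PNA-21 replicate 1 or 3 (adjusted p up to 0.139), and WARS without a PNA-21 library or PNA-10b replicate 1 or 2 (up to 0.171). The cytosolic count fell to 0 when PNA-10b replicate 1, PNA-21 replicate 1 or PNA-21 replicate 3 was left out. It was 1 when replicate 2 of either group was left out and 5 when PNA-10b replicate 3 was.

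In PNA-10b+21 against PNA-21 edgeR called 0 of all 15715 genes (0%), and 1354 genes had an unadjusted p under 0.05. DESeq2 called 25 genes, none of them a synthetase. The 2 synthetases with an unadjusted p under 0.05 were both mitochondrial and both higher in PNA-10b+21, AARS2 at 0.19 ± 0.063 (SE), adjusted p = 0.322 and LARS2 at 0.16 ± 0.061 (SE), adjusted p = 0.436. AARS2 libraries of PNA-10b+21 all lay above those of PNA-21, as did 6.19% of all genes, with 8.16% the other way. The cytosolic log2 fold changes lay between -0.05 (DARS) and 0.07 (FARSA).

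Departure from additivity was measured as the change in PNA-10b+21 against PNA-10b minus the change in PNA-21 against control, on the log2 scale. The carrier is on both sides of the first change and on 1 side of the second. If all treated groups received the same amount of carrier, a change made by it enters the departure with its sign turned. PNA-10b+21 cells received 150 nM of each agent, so their total dose was higher than in either single group. Changes made by the carrier, by the total dose and by the agents cannot be told apart in the departure. It was negative and passed for MARS (-0.32 ± 0.082 (SE), adjusted p = 0.0372) and WARS (-0.31 ± 0.077 (SE), adjusted p = 0.033), so the change in PNA-10b+21 was less than the sum of the single changes. For MARS the changes against control were 0.11 for PNA-10b+21, 0.15 for PNA-21 and 0.28 for PNA-10b, and for WARS 0.03, 0.07 and 0.27 in the same order. Of all genes 3.12% passed, 1.48% higher and 1.64% lower. AARS (-0.32 ± 0.091 (SE), adjusted p = 0.059) and GARS (-0.26 ± 0.074 (SE), adjusted p = 0.0605) had values of similar size that did not pass. The median was -0.12 over the cytosolic and 0.01 over the mitochondrial genes, against 0.01 over all genes, and no mitochondrial gene had even an unadjusted p under 0.05. Both calls were lost when 1 of 8 libraries was left out, namely control replicate 1 or 3, PNA-10b replicate 2, PNA-21 replicate 1 or 2 or a PNA-10b+21 library, leaving a count of 0 each time (adjusted p up to 0.135 for MARS and 0.130 for WARS). The count was 4 when control replicate 2 or PNA-10b replicate 3 was left out.

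Groups within the family were compared by counts, without a test. For reading them, the genes called higher and lower were 13.6% and 13.4% of all genes for PNA-10b+21, 15.2% and 14.6% for PNA-21, and 2.75% and 3.74% for PNA-10b. Of the 8 members of the multisynthetase complex, PNA-10b+21 had 3 higher and 1 lower, PNA-21 had 2 higher and 1 lower and PNA-10b had 2 higher. Of the 10 tested cytosolic genes outside it, PNA-10b+21 had 4 higher, PNA-21 had 3 and PNA-10b had 4, and none was lower. By catalytic class, 3, 1 and 3 of 7 tested cytosolic class I genes rose in PNA-10b+21, PNA-21 and PNA-10b. Of the 10 class II genes 4, 4 and 3 rose in the same order, and the single fall in PNA-10b+21 and in PNA-21 was DARS. Of the 8 mitochondrial class I genes 4 rose in PNA-10b+21 and 3 in PNA-21, and of the 7 of class II 1 rose in PNA-10b+21 and none in PNA-21 (edgeR; none at an unadjusted p under 0.05 or by DESeq2). EPRS, which holds an enzyme of each class, is in neither count.

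The cytosolic genes were also divided by whether they are commonly reported as ATF4 targets, a list drawn up with earlier results of these data known. The share of all genes called higher was 13.6% for PNA-10b+21, 15.2% for PNA-21 and 2.75% for PNA-10b. In PNA-10b 6 of the 11 tested reported targets rose, with a median log2 fold change of 0.20, and none of the other 7, with a median of 0.01 (edgeR; 1 at an unadjusted p under 0.05, and none by DESeq2). In PNA-21 the reported targets had 2 of 11 higher, near the share of all genes (median 0.12), and the other 7 had 3 higher and 1 lower (median 0.04). In PNA-10b+21 the reported targets had 4 higher (median 0.12) and the others 3 higher and 1 lower (median 0.06). Of the 5 tested genes with the motif in the promoter window printed above, PNA-10b+21 had 2 higher, PNA-21 had 2 and PNA-10b had 4. Of the 10 tested genes with a window and no match, PNA-10b+21 had 3 higher, PNA-21 had 3 and PNA-10b had 2. GARS and WARS, which rose in PNA-10b, had no match in the window.

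The wider ATF4 programme was followed through 30 genes of amino acid synthesis, import and stress response. In PNA-10b 12 of the 30 were higher and none lower, against 2.75% and 3.74% of all genes, with a median log2 fold change of 0.24. In PNA-21 9 were higher and 6 lower (median 0.13), and in PNA-10b+21 4 were higher and 6 lower (median 0.04). The whole table had shares of 15.2% higher and 14.6% lower for PNA-21, and of 13.6% and 13.4% for PNA-10b+21, so the 4 of 30 higher in PNA-10b+21 are at the share of all genes. With library totals the split was 7 and 6 in PNA-10b+21 and 13 and 5 in PNA-21. In PNA-10b+21 against PNA-10b 16 were lower and none higher, against 5.10% and 4.61% of all genes. In PNA-21 against PNA-10b 9 were lower and none higher, against 3.88% and 2.91% of all genes. From additivity 11 departed, all below 0, where 1.64% of all genes passed below 0 and 1.48% above. The PNA-10b count was 7 without PNA-10b replicate 2, and the PNA-21 count 9 without control replicate 3 or PNA-21 replicate 2. In PNA-10b+21 against PNA-10b it was 10 without PNA-10b replicate 2 or PNA-10b+21 replicate 1, and in PNA-21 against PNA-10b 5 without PNA-10b replicate 2. The departure count was 3 without control replicate 1 or PNA-10b replicate 2, and 4 without control replicate 3, PNA-21 replicate 2 or PNA-10b+21 replicate 2.

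SLC7A5, a transporter of large neutral amino acids, had 52.1, 46.7 and 48.3 CPM in PNA-10b+21, 49.6, 62.4 and 40.3 CPM in PNA-21, 64.0, 82.0 and 62.6 CPM in PNA-10b, and 39.6, 46.1 and 36.8 CPM in control. All PNA-10b libraries lay above every control library and above each PNA-10b+21 and PNA-21 library (0.76 ± 0.12 (SE), adjusted p = 0.000613 against control). For this pattern too the share of all genes was not counted. PSAT1, an enzyme of serine synthesis, changed by 0.65 ± 0.10 (SE), adjusted p = 0.000505 in PNA-10b against control, and TRIB3, a pseudokinase induced by stress, by 0.64 ± 0.10 (SE), adjusted p = 0.000788. ATF4 itself, which is controlled largely at translation and is named here for its role, did not pass in PNA-10b (0.12 ± 0.054 (SE), adjusted p = 0.188). In PNA-21 the members with the smallest p-values were lower, namely VLDLR, a lipoprotein receptor (-0.58 ± 0.083 (SE), adjusted p = 3.15e-05), STC2, a secreted glycoprotein (-0.47 ± 0.078 (SE), adjusted p = 0.000148), and SLC6A9, a glycine transporter (-0.53 ± 0.097 (SE), adjusted p = 0.00037).

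Genes that work beside the synthetases were counted in the same way. Of 11 charging partners, none passed in PNA-10b (none at an unadjusted p under 0.05, and none by DESeq2), 2 rose and 1 fell in PNA-21, and 2 rose and 1 fell in PNA-10b+21. These 3 of 11 in each of PNA-21 and PNA-10b+21 are near the shares of all genes called, 27.0% in PNA-10b+21 and 29.8% in PNA-21. DESeq2 called 1 partner higher and 1 lower in each of these 2 groups. In PNA-21 the complex scaffolds EEF1E1 (0.61 ± 0.17 (SE), adjusted p = 0.0102) and AIMP1 (0.14 ± 0.051 (SE), adjusted p = 0.0481) were higher. EEF1E1 was low, with 6.32, 7.99 and 7.235 CPM in PNA-21 and 5.63, 5.24 and 2.99 CPM in control, where replicate 3 was the lowest. In PNA-10b+21 the scaffold AIMP2 (0.32 ± 0.11 (SE), adjusted p = 0.0269) and MTFMT, which formylates mitochondrial initiator tRNA (0.28 ± 0.095 (SE), adjusted p = 0.0324), were higher. TARSL2, a paralogue of TARS, was lower in both groups (-0.24 ± 0.068 (SE), adjusted p = 0.0123 in PNA-10b+21 and -0.23 ± 0.068 (SE), adjusted p = 0.0139 in PNA-21).

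Of 9 mitochondrial translation factors PNA-10b+21 had 4 higher, PNA-21 had 2 and PNA-10b had none, where 1 had an unadjusted p under 0.05 and DESeq2 called none. The shares of all genes called higher were 13.6% for PNA-10b+21, 15.2% for PNA-21 and 2.75% for PNA-10b, so none of 9 in PNA-10b is near its share. The elongation factor GFM1 had 86.3, 91.3 and 82.8 CPM in PNA-10b+21, 90.2, 82.7 and 85.8 CPM in PNA-21, 78.8, 80.7 and 74.1 CPM in PNA-10b, and 69.6, 76.0 and 68.7 CPM in control. PNA-10b+21 and PNA-21 libraries lay above all control libraries (0.28 ± 0.057 (SE), adjusted p = 0.00104 in PNA-10b+21 and 0.27 ± 0.057 (SE), adjusted p = 0.0013 in PNA-21). Of all genes 20.3% lay above control in this way in PNA-10b+21 and 21.5% in PNA-21. TUFM, which carries charged tRNA to the mitochondrial ribosome, also passed in both (0.17 ± 0.049 in PNA-10b+21 and 0.17 ± 0.049 in PNA-21, SE). The recycling factors MRRF (0.21 ± 0.055) and GFM2 (0.23 ± 0.072, named after its values were seen) passed in PNA-10b+21. Of the 4 tested cytosolic delivery factors, 1 passed in PNA-10b+21. This was EEF1D, named after its values were seen, with 0.573, 23.0 and 0.628 CPM in PNA-10b+21 and at most 1.24 CPM in each of the other 9 libraries. The call rests on PNA-10b+21 replicate 2, and DESeq2 did not make it.

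Because WARS is also induced by interferon, interferon-response genes were counted beside it. Of 12 tested, 2 were higher and 4 lower in PNA-10b+21, 2 higher and 4 lower in PNA-21, and none higher and 1 lower in PNA-10b, where WARS rose. The whole table had shares of 13.6% higher and 13.4% lower for PNA-10b+21, 15.2% and 14.6% for PNA-21, and 2.75% and 3.74% for PNA-10b. IFIT1, an antiviral effector, was lower in PNA-10b+21 (-0.97 ± 0.13 (SE), adjusted p = 1.56e-05), in PNA-21 (-0.79 ± 0.13 (SE), adjusted p = 0.000119) and in PNA-10b (-0.76 ± 0.13 (SE), adjusted p = 0.00127). GBP1 (-0.64 ± 0.097 in PNA-10b+21 and -0.61 ± 0.096 in PNA-21, SE) and IRF1 (-0.43 ± 0.096 and -0.43 ± 0.095 in the same order) were lower in both groups.

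Summed over the 18 tested cytosolic genes, the level was 3996, 4103 and 3942 CPM in PNA-10b+21, 4082, 3976 and 3805 CPM in PNA-21, 4275, 4353 and 3813 CPM in PNA-10b, and 3680.3, 3728 and 3798 CPM in control. The group means were 107.4%, 105.9% and 111% of control in PNA-10b+21, PNA-21 and PNA-10b. Every treated library was above every control library, in PNA-21 and PNA-10b by a small margin at replicate 3. Summed over the 15 mitochondrial genes, the level was 838.5, 842 and 818 CPM in PNA-10b+21, 844, 798 and 785 CPM in PNA-21, 785, 774 and 752 CPM in PNA-10b, and 764, 756 and 768 CPM in control. The means were 109.2%, 106.1% and 101% of control in the same order. PNA-10b overlapped control, and PNA-10b+21 and PNA-21 did not. These sums are descriptions and were not tested, and a few abundant genes such as IARS and GARS weigh most in them.

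**Figure D5:**
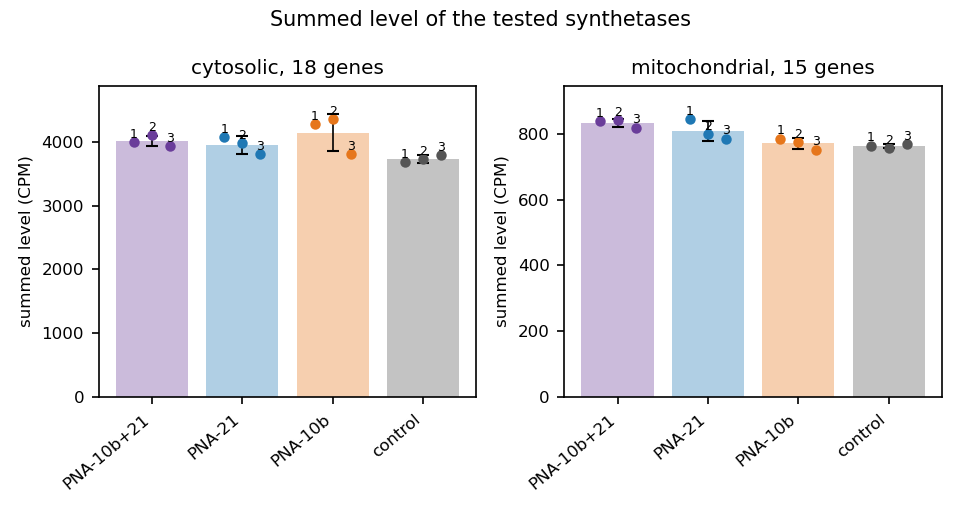
Summed level in CPM of the 18 cytosolic and 15 mitochondrial synthetases, as bars for the mean of 3 libraries with SD and points numbered by replicate, for PNA-10b+21, PNA-21, PNA-10b and control from left to right. PNA-10b is the highest cytosolic bar and stands near control in the mitochondrial panel, and its replicate 3 lies apart from replicates 1 and 2 in the cytosolic panel.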

How the data were processed

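Polyadenylated RNA of 12 U87 libraries was sequenced with a stranded mRNA kit, per the labels' protocols. The deposited file is 1 table holding each library's raw count for every gene, made by the authors with HISAT2 2.1.0, SAMtools 1.7 and HTSeq 0.11.0 on hg38, per the submitters' processing notes. Neither the annotation release nor the strand setting is given in the sources used here.

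Genes were filtered with filterByExpr (minimum count 10), which kept 15715 of 35741 genes and 99.84% of counts, and scaled by TMM. All 4 groups were fitted in 1 model with edgeR 4.0.16 (quasi-likelihood test, R 4.3.3), and 7 comparisons were tested with Benjamini-Hochberg adjustment over all tested genes at 0.05. Standard errors were the log2 fold change divided by the root of F. Alternatives were RLE scaling, library totals, no filter, a minimum count of 50, DESeq2 1.42.0, a replicate block, the 2 compared groups alone, and each library left out. The statistics were tested on simulated counts. RPKM used exon lengths of GENCODE 29, which matched 34564 genes; promoters and miR-21-5p are from RefSeq.

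The members and gene lists were chosen with earlier results of these data known. Values per library are given for synthetases called against control, up to 10 cytosolic and 8 mitochondrial by smallest p. In each other list up to 3 genes per comparison with control are named by smallest p. At totals of 12846676 to 18305820 counts, precision is limited mainly for low genes, such as SARS2 with 11 to 20 counts.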

Additional observations from a re-analysis of the deposited data

Results flagged for a closer look

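MARS and WARS, which encode the cytosolic methionyl and tryptophanyl enzymes, stood out because the change in PNA-10b+21 against PNA-10b differed from the change in PNA-21 against control by a test of that difference. The departure from additivity was -0.32 on the log2 scale for MARS and -0.31 for WARS (edgeR adjusted p = 0.0372 and 0.033, 3 libraries a group). WARS also passed as lower in PNA-10b+21 against PNA-10b, and MARS did not pass there. Untreated control cells lack the carrier, which all treated cells received, and the total dose was higher in PNA-10b+21 than in either single group. A change made by the carrier or the total dose and a departure between the agents cannot be told apart here.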

How the results depend on the processing

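For the 37 calls on single synthetases over the 7 comparisons, 701 values were recomputed: 607 kept their direction and their call, 94 kept the direction and lost the call, and 0 reversed. The cause was not tested for any of the following counts. Those of this paragraph stand without the share of all genes called in the same setting, which also differs between settings. They are therefore no result about the synthetases alone. Without the filter on low counts, the cytosolic count of calls was 10 in PNA-10b against control, 6 in PNA-10b+21 against PNA-10b, 6 in PNA-21 against PNA-10b and 6 for the departure from additivity, and the mitochondrial count in PNA-10b+21 against PNA-10b was 1. With library totals the cytosolic count was 10 in PNA-21 against control, 4 in PNA-21 against PNA-10b and 4 for the departure, and the mitochondrial count in PNA-21 against PNA-10b was 1. With a minimum count of 50 it was 6 cytosolic genes in PNA-10b+21 against PNA-10b and 5 in PNA-21 against PNA-10b, and DESeq2 gave 5, 5 and, for the departure, 4.

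With 1 library left out, the comparisons with control had cytosolic calls of 4 to 9 for PNA-10b+21, 3 to 8 for PNA-21 and 1 to 10 for PNA-10b. Calls over all genes moved too, over 2739 to 4271 for PNA-10b+21, 3393 to 4696 for PNA-21 and 305 to 1244 for PNA-10b. Cytosolic calls ranged over 1 to 6 in PNA-10b+21 against PNA-10b, 0 to 5 in PNA-21 against PNA-10b and 0 to 4 for the departure. Calls over all genes ranged over 529 to 1681 in PNA-10b+21 against PNA-10b and 540 to 1160 in PNA-21 against PNA-10b. Mitochondrial calls ranged over 4 to 6 for PNA-10b+21 and 1 to 3 for PNA-21 against control, and over 1 to 2 in PNA-10b+21 against PNA-10b. They were 0 each time in PNA-10b against control, in PNA-21 against PNA-10b and for the departure. PNA-10b+21 against PNA-21 had 0 synthetase calls each time, and over all genes the no-filter fit called 312 and the fit of those 2 groups alone 48. For the departure over all genes the count ranged over 92 to 1022. The mitochondrial count of 1 in PNA-10b+21 against PNA-10b came without control replicate 1, any PNA-10b library, PNA-21 replicate 2 or PNA-10b+21 replicate 1 or 2.

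Same-numbered libraries of different groups did not deviate together (correlations of -0.0577 to 0.109 over 18 pairs), so the numbers were not taken as pairs. With a replicate block the cytosolic count was 5 in PNA-10b+21 against PNA-10b and 4 for the departure, also given without the share of all genes. The departure was not run on 2 groups alone, since it needs all 4.

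CARS and VARS were too low to test and SARS2 had 11 to 20 counts a library; why was not tested. The design has no carrier control, and 3 libraries a group let a single one decide several calls.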
